A study of Mus musculus with 6 samples.

Results

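Interferon-stimulated genes are genes whose transcription rises when a cell detects interferon or viral nucleic acid. Values for 46 such genes were looked up by symbol, and every probe set that the platform annotation names for one of them alone was used. That gave 62 of the 22690 probe sets of the array, which cover 41 of the 46 genes among the 12393 genes tested. Isg15 had a probe set only in common with another gene, and Ddx58, Ifi44, Ifi27 and Xaf1 had none of their own, so these 5 genes were not analysed here. The genes were compared between a pair of mouse hypothalamic cell lines: A_212, derived from adult hypothalamus, and N_46, derived from embryonic hypothalamus. Per the labels, both express neuropeptide Y, and both were immortalised by overexpression of the SV40 T-antigen, which disables the tumour suppressors p53 and RB. Each line was grown on 3 plates in DMEM with 5% serum, to 70% confluence and with no stated treatment, with 1 array for the RNA of each plate and 6 arrays in all. Each source age is represented by 1 line, so an effect of age and other properties of the lines cannot be told apart.

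Type I interferons bind a receptor made of IFNAR1 and IFNAR2, and interferon gamma binds a receptor made of IFNGR1 and IFNGR2. The type I receptor activates JAK kinases, and their signal assembles the factor ISGF3, whose subunits include STAT2 and IRF9. ISGF3 binds the interferon-stimulated response element in promoters. The induced proteins include sensors of viral RNA and DNA, transcription factors that amplify the response, GTPases that attack pathogen compartments, and effectors that block entry, translation or release of viruses. Many neural cells keep a low level of these genes without infection, and interferons made elsewhere in the brain can raise it.

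The deposited log2 values are centred on the median of the 6 arrays for each probe set. They carry differences between arrays without an expression level, so presence or absence of a transcript is lost, and the neuronal identity that the labels imply could not be checked against levels of markers. The log base of 2 is inferred from the RMA method, and each fold below rests on it. Where the lines do not overlap, centring places the lowest value of the upper line and the highest of the lower line at equal distances from 0, so the values do not show which line departed from the other. Differences are A_212 minus N_46 with the standard error (SE) from limma (n = 3 arrays per line), and a gene was called at a Benjamini-Hochberg adjusted p under 0.05 over 12393 genes. Array medians over all genes ranged from -0.04 to 0.00 in A_212 and from 0.00 to 0.03 in N_46, and precision is limited by the number of arrays. The labels do not say that the plates of a line were separate cultures from the start, so the spread behind each p-value may be technical.

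Most of the interferon-stimulated genes measured were higher in A_212. The genes were chosen with earlier results of these data known, so their shares beside those of all genes are a description without a test. Of the 41 genes, 28 (68.3%) were called higher in A_212, where 18.3% of all genes tested were, and 3 (7.32%) were called lower in A_212, where 20.9% of all genes were (39.2% in either direction). The other 10 did not pass the threshold. The median difference was 0.65 over the 41 genes and -0.06 over all genes tested. Differences of at least 2-fold that were also called numbered 16 higher in A_212 and 0 lower, against 3.61% and 2.22% of all genes. The 3 A_212 arrays lay above the 3 N_46 arrays without overlap for 28 genes and below them for 4, where the shares over all genes were 22.2% and 28.9%. In these bulk cultures, more cells that express a gene and more RNA per cell cannot be told apart.

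**Figure D1:**
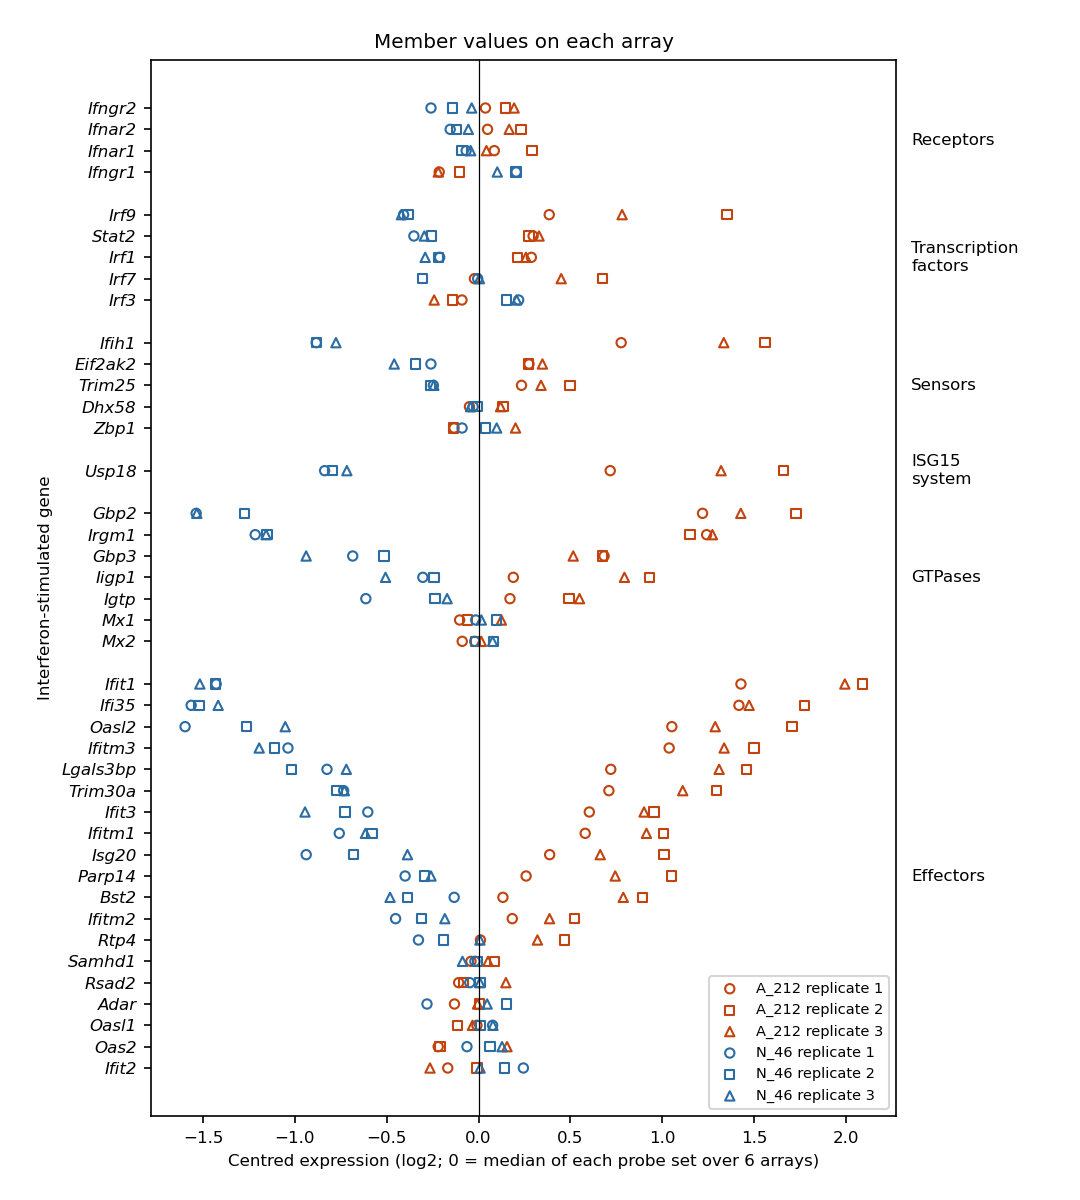
Centred log2 expression (x axis) of the 41 interferon-stimulated genes measured (y axis, grouped by role) on each of the 6 arrays, with A_212 in orange and N_46 in blue and a marker shape per replicate. For Ifit1, Ifi35, Gbp2 and Irgm1 the lines lie more than 2 log2 units apart, and for Mx1, Mx2, Rsad2 and Oas2 the arrays of the lines are mixed.

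The receptor genes, through which interferons act, differed little and in both directions. Ifnar1 stood at 0.09, 0.29 and 0.04 on the A_212 arrays, against -0.07, -0.09 and -0.04 on the N_46 arrays. The lines did not overlap, but the difference of 0.21 ± 0.08 (95% interval 0.03 to 0.39) did not pass the threshold (limma adjusted p = 0.0673). It did pass with arrays set to the same median (adjusted p = 0.0444) or the same 75th percentile (0.0494). With array weights (0.0339) and without A_212 replicate 3 (0.0373) it passed as well. Ifnar2, its partner chain, had 0.05, 0.23 and 0.17 on the A_212 arrays, against -0.15, -0.12 and -0.06 on the N_46 arrays, and was called at 0.26 ± 0.08 (adjusted p = 0.019). The signalling chain of the interferon gamma receptor, Ifngr2, had 0.04, 0.15 and 0.19 on the A_212 arrays, against -0.26, -0.14 and -0.04 on the N_46 arrays, a difference of 0.27 ± 0.08 (adjusted p = 0.0222). Both calls were narrow: leaving out A_212 replicate 2, N_46 replicate 1 or N_46 replicate 2 ended each of them (adjusted p between 0.0519 and 0.0714), as did leaving out A_212 replicate 3 for Ifngr2 (0.0582). Taken one by one, 1 of the 2 probe sets was called for each gene, at 0.39 for Ifnar2 and 0.35 for Ifngr2. The other probe sets, at 0.13 and 0.20, did not pass. The ligand-binding chain Ifngr1 went the other way, with -0.21, -0.10 and -0.22 on the A_212 arrays, against 0.20, 0.20 and 0.10 on the N_46 arrays. All 3 A_212 arrays lay below the N_46 arrays, and Ifngr1 was called lower in A_212 at -0.35 ± 0.07 (adjusted p = 0.00309).

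All 5 transcription factor genes were called, 4 of them higher in A_212. Over all genes, 39.2% were called and 18.3% were called higher. Irf9, the DNA-binding subunit of ISGF3, had 0.39, 1.35 and 0.78 on the A_212 arrays, against -0.41, -0.39 and -0.42 on the N_46 arrays. The N_46 plates were tightly grouped and the A_212 plates widely spread, all above them, and the difference was 1.24 ± 0.19, or 2.37-fold (adjusted p = 0.000383). Stat2, another ISGF3 subunit, had 0.30, 0.27 and 0.33 on the A_212 arrays, against -0.35, -0.26 and -0.30 on the N_46 arrays, and differed by 0.60 ± 0.07 (1.52-fold, adjusted p = 5.15e-05). Both its probe sets were called, at 0.52 and 0.68, and the plates of either line lay close together. Irf1, a factor that interferon gamma induces strongly, had 0.29, 0.21 and 0.26 on the A_212 arrays, against -0.21, -0.22 and -0.29 on the N_46 arrays (0.49 ± 0.07, adjusted p = 0.000224).

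Irf7 and Irf3 encode the factors that switch on the type I interferon genes themselves, and they stood on opposite sides. Irf7, which interferon induces, had -0.02, 0.67 and 0.45 on the A_212 arrays, against 0.00, -0.30 and 0.00 on the N_46 arrays. A_212 replicate 1 lay within the N_46 range, and the call at 0.47 ± 0.16 (adjusted p = 0.0367) was lost without A_212 replicate 2 or 3 or N_46 replicate 1 or 2 (adjusted p from 0.0501 to 0.144). Irf3, which is made constitutively and activated by phosphorylation, had -0.09, -0.14 and -0.24 on the A_212 arrays, against 0.22, 0.15 and 0.21 on the N_46 arrays. The lines did not overlap and Irf3 was called lower in A_212 at -0.35 ± 0.07 (adjusted p = 0.0028). Of its 4 probe sets, 3 were called, at -0.39, -0.47 and -0.56, whereas the remaining one, the only plain probe set of the gene, differed by 0.02 (adjusted p = 0.871 over all probe sets).

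Among 5 sensors of foreign nucleic acid and their regulators, 3 were higher in A_212 and 2 did not pass. The share called higher over all genes was 18.3%. Ifih1, which encodes MDA5, the sensor of long double-stranded RNA, had 0.78, 1.56 and 1.34 on the A_212 arrays, against -0.88, -0.88 and -0.78 on the N_46 arrays. The lowest A_212 plate was far above the highest N_46 plate, with a difference of 2.07 ± 0.16, or 4.21-fold (adjusted p = 3.15e-06). Eif2ak2, which encodes PKR, the kinase that halts translation on binding double-stranded RNA, had 0.27, 0.27 and 0.35 on the A_212 arrays, against -0.26, -0.34 and -0.46 on the N_46 arrays (0.65 ± 0.08, adjusted p = 6.37e-05). Trim25, a ubiquitin ligase that activates the RNA sensor RIG-I, had 0.23, 0.50 and 0.34 on the A_212 arrays, against -0.25, -0.26 and -0.24 on the N_46 arrays (0.61 ± 0.08, adjusted p = 0.000166), and all 3 of its probe sets were called. Dhx58, which encodes LGP2, a helicase that tunes MDA5, differed by 0.09 ± 0.08 (95% interval -0.07 to 0.26). Its 3 probe sets disagreed: 1 was called at 0.37 and the others stood at 0.05 and -0.13. Zbp1, a sensor of Z-form nucleic acid, differed by -0.04 ± 0.10 (-0.26 to 0.19), with the plates of the lines intermixed.

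Of the genes listed here for the ISG15 pathway, Usp18 was measured. It encodes the protease that removes the ubiquitin-like ISG15 from proteins and also dampens the type I receptor. Usp18 stood at 0.72, 1.66 and 1.32 on the A_212 arrays, against -0.84, -0.79 and -0.72 on the N_46 arrays. The lines were well apart, by 2.02 ± 0.19 or 4.05-fold (adjusted p = 1.13e-05), and the spread between plates was larger in A_212 (SD 0.48) than in N_46 (SD 0.06). Ube2l6 and Uba7, which act in the same pathway, were counted with the other interferon-stimulated genes described below. Ube2l6 was called higher in A_212 at 0.85 ± 0.11 (adjusted p = 0.000136). Uba7 did not pass (0.14 ± 0.07, adjusted p = 0.157).

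The GTPases divided by family. Both guanylate-binding proteins and all 3 immunity-related GTPases, which act on the membranes around intracellular pathogens, were called higher in A_212, and neither Mx gene passed. Of the 7 GTPase genes 71.4% were thus called higher, against 18.3% of all genes. Gbp2 stood at 1.22, 1.73 and 1.43 on the A_212 arrays, against -1.54, -1.28 and -1.53 on the N_46 arrays. This was the largest difference among the GTPases measured, 2.91 ± 0.13 or 7.51-fold (adjusted p = 3.26e-08), and its 2 probe sets differed by 0.01. Gbp3 had 0.68, 0.68 and 0.52 on the A_212 arrays, against -0.69, -0.52 and -0.94 on the N_46 arrays (1.34 ± 0.11, 2.53-fold, adjusted p = 3.68e-06). Irgm1, a regulator of the other immunity-related GTPases, had 1.24, 1.15 and 1.27 on the A_212 arrays, against -1.22, -1.15 and -1.16 on the N_46 arrays. Its plates lay close together, with an SD of 0.06 in A_212 and 0.04 in N_46, and the difference of 2.40 ± 0.07 (5.27-fold) had the smallest adjusted p of the members, 2.31e-09.

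Iigp1 and Igtp, of the same immunity-related family, had smaller differences. Iigp1 had 0.19, 0.93 and 0.79 on the A_212 arrays, against -0.30, -0.24 and -0.51 on the N_46 arrays (0.99 ± 0.16, adjusted p = 0.000734). Igtp had 0.17, 0.49 and 0.55 on the A_212 arrays, against -0.61, -0.24 and -0.17 on the N_46 arrays (0.75 ± 0.13, adjusted p = 0.00106). For both genes A_212 replicate 1 was the A_212 plate nearest to N_46. Mx1, which encodes a nuclear inhibitor of influenza virus, had -0.10, -0.06 and 0.12 on the A_212 arrays, against -0.02, 0.10 and 0.02 on the N_46 arrays. Mx2, its cytoplasmic relative, had -0.09, -0.01 and 0.01 on the A_212 arrays, against -0.02, 0.08 and 0.08 on the N_46 arrays. The arrays of the lines overlapped for both, and the 95% intervals, -0.22 to 0.14 for Mx1 and -0.23 to 0.08 for Mx2, lie inside 2-fold in either direction.

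**Figure D2:**
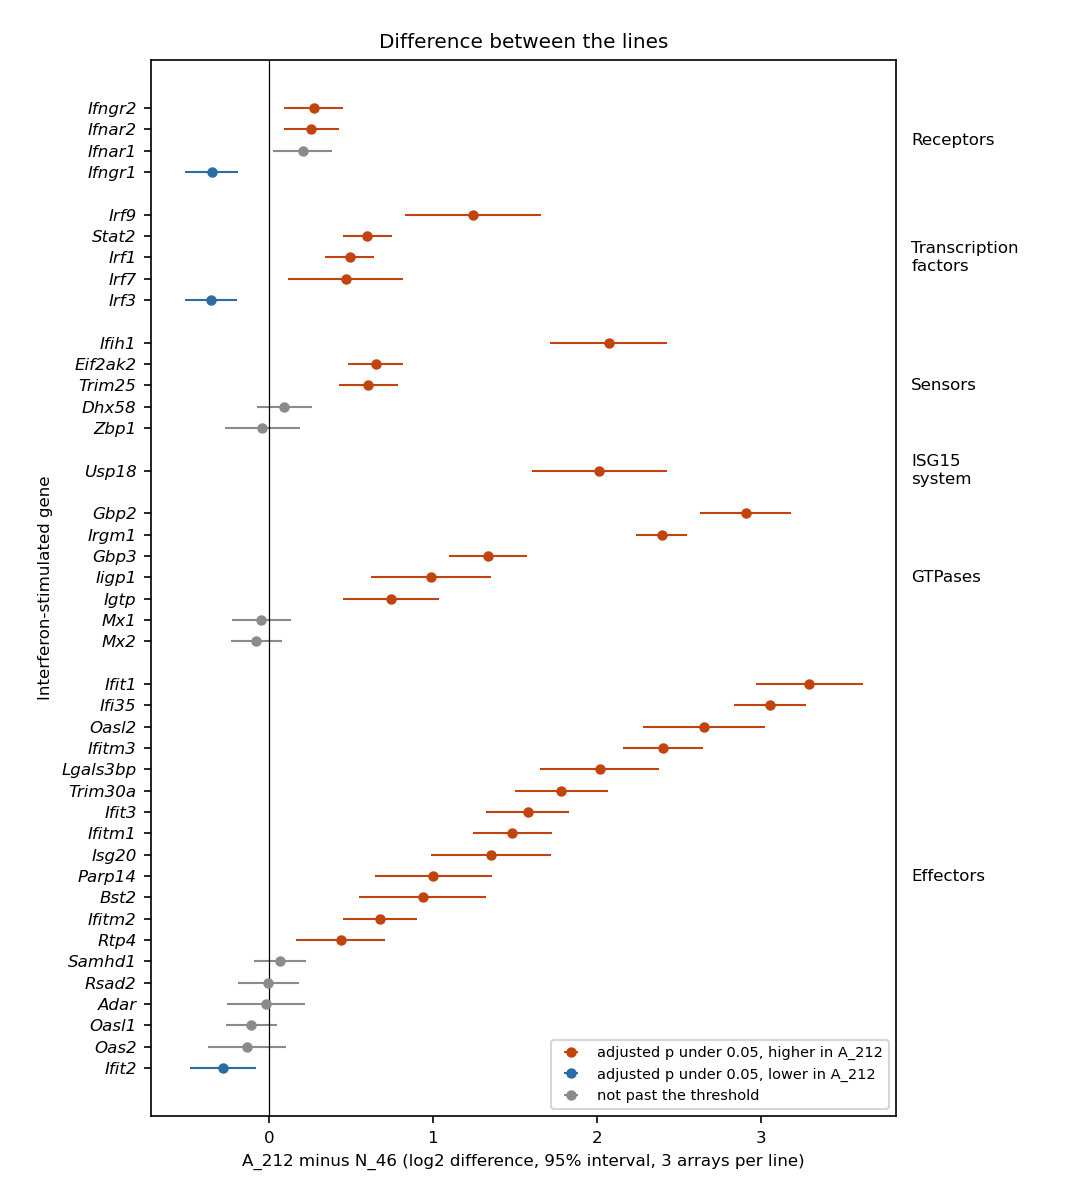
Difference between the lines (x axis, A_212 minus N_46, log2) for each of the 41 genes (y axis, grouped by role), as points with 95% intervals from limma (3 arrays per line). Of the genes, 28 were called higher in A_212 (orange), 3 lower in A_212 (blue) and 10 did not pass the threshold (grey).

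The effectors held the largest differences. Of 19 measured, 13 were called higher in A_212, 10 of them by at least 2-fold, 1 was called lower and 5 did not pass, and the median difference, that of Parp14, was 1.003. Of all genes, 18.3% were called higher in A_212, 3.61% higher by at least 2-fold and 20.9% lower. The Ifit family, whose proteins bind viral RNA, was split. Ifit1, which recognises RNA caps that lack host methylation, stood at 1.43, 2.09 and 1.99 on the A_212 arrays, against -1.43, -1.43 and -1.52 on the N_46 arrays. At 3.30 ± 0.15, or 9.84-fold (adjusted p = 3.91e-08), it differed most of the members and ranked 50 among all 12393 genes by its excess in A_212. Ifit3, a protein partner of Ifit1 in human cells, had 0.60, 0.96 and 0.90 on the A_212 arrays, against -0.60, -0.73 and -0.94 on the N_46 arrays (1.58 ± 0.11, 2.99-fold, adjusted p = 1.77e-06). Ifit2 had -0.17, -0.01 and -0.26 on the A_212 arrays, against 0.24, 0.14 and 0.01 on the N_46 arrays. It was called lower in A_212 at -0.28 ± 0.09 (adjusted p = 0.0325), and A_212 replicate 2 and N_46 replicate 3 almost touched. That call was lost without A_212 replicate 1 or 3 or N_46 replicate 1 or 2 (adjusted p from 0.0796 to 0.102). It was also lost with arrays set to the same median (0.061) and with array weights (0.0506).

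The Ifitm proteins, which sit in membranes and block fusion of viruses with the cell, were all higher in A_212. Ifitm3 had 1.04, 1.50 and 1.34 on the A_212 arrays, against -1.04, -1.11 and -1.19 on the N_46 arrays (2.41 ± 0.11, 5.30-fold, adjusted p = 5.19e-08). Ifitm1 had 0.58, 1.01 and 0.91 on the A_212 arrays, against -0.76, -0.58 and -0.62 on the N_46 arrays (1.49 ± 0.11, 2.80-fold). Ifitm2 had 0.18, 0.52 and 0.39 on the A_212 arrays, against -0.45, -0.31 and -0.18 on the N_46 arrays (0.68 ± 0.10, 1.60-fold). The order of the differences was Ifitm3, Ifitm1 and Ifitm2, with 95% intervals of 2.16 to 2.65, 1.24 to 1.73 and 0.45 to 0.91 that do not meet. Near-identical members of such families may share signal between probe sets.

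Ifi35, which encodes a leucine zipper protein that binds the interferon-inducible Nmi, had 1.42, 1.77 and 1.47 on the A_212 arrays, against -1.57, -1.52 and -1.42 on the N_46 arrays (3.06 ± 0.10, 8.32-fold, adjusted p = 4.43e-09). Lgals3bp, a secreted galectin-binding glycoprotein, had 0.72, 1.46 and 1.31 on the A_212 arrays, against -0.83, -1.02 and -0.72 on the N_46 arrays (2.02 ± 0.16, 4.05-fold). Trim30a had 0.71, 1.30 and 1.11 on the A_212 arrays, against -0.73, -0.77 and -0.73 on the N_46 arrays (1.79 ± 0.13, 3.45-fold), although its 2 probe sets differed in size, at 1.15 and 2.42. In each of these 3 genes the lines were far apart, and A_212 replicate 1 was the lowest A_212 plate. The exonuclease gene Isg20 differed by 1.36 ± 0.16, the ADP-ribosyltransferase gene Parp14 by 1.003 ± 0.16, and tetherin (Bst2), which holds budding virions on the cell surface, by 0.94 ± 0.17, all called. Rtp4, an interferon-inducible chaperone of membrane receptors, was called at 0.44 ± 0.12 (adjusted p = 0.0161), with 1 probe set at 0.81 and the other at 0.07, and the call ended without A_212 replicate 2 or 3 or N_46 replicate 1 (0.0582 to 0.0685).

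The oligoadenylate synthetase family differed within itself. Oasl2, an OAS-like gene, had 1.05, 1.71 and 1.29 on the A_212 arrays, against -1.60, -1.26 and -1.05 on the N_46 arrays (2.65 ± 0.17, 6.30-fold, adjusted p = 6.91e-07). Oasl1, its neighbour in the family, had -0.01, -0.11 and -0.03 on the A_212 arrays, against 0.08, 0.01 and 0.08 on the N_46 arrays, and did not pass (95% interval -0.26 to 0.05). Oas2, which makes the oligoadenylates that activate RNase L, did not pass either (-0.13 ± 0.11, -0.37 to 0.10), except without A_212 replicate 3, where it was called lower in A_212 at -0.26 (adjusted p = 0.0327). Rsad2, which encodes viperin, an inhibitor of viral replication, had -0.11, -0.08 and 0.15 on the A_212 arrays, against -0.05, 0.01 and 0.01 on the N_46 arrays. Its difference was 0.00 ± 0.08 (-0.19 to 0.18), and none of its 3 probe sets was called. The RNA-editing gene Adar (-0.02 ± 0.11) and the nucleotide-hydrolysing gene Samhd1 (0.07 ± 0.07) also failed to pass, with the plates of the lines intermixed.

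Promoter sequences were set beside these differences because members of the same family stood apart in their differences. The RefSeq table of assembly GRCm38.p6 gave windows of 250 bases before to 50 bases after the start for 36 of the 46 listed genes, 32 of them measured. The letters searched, the core of the interferon-stimulated response element, were GAAA, any 2 bases and GAAA again, on both strands (TTTC, any 2 bases and TTTC on the other), with overlapping matches counted and a gene counted once if any of its windows matched. A match was found for 16 of the 36 listed genes (44.4%), against 1079 of 27025 genes of the table (3.99%). The 4 windows below that matched and belong to genes higher in A_212, and the window of Rsad2, which matched without a difference between the lines, are shown with matched letters in capitals. A match describes letters and does not show a site that is bound.
Ifit1, chr19:34640639-34640938, plus strand: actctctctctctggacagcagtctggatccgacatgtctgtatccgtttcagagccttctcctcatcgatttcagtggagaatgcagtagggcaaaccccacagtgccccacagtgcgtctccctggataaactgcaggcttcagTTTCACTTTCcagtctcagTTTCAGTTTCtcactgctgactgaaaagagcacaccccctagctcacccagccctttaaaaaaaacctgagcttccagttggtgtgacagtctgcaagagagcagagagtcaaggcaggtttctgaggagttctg
Ifit3, chr19:34583279-34583578, plus strand: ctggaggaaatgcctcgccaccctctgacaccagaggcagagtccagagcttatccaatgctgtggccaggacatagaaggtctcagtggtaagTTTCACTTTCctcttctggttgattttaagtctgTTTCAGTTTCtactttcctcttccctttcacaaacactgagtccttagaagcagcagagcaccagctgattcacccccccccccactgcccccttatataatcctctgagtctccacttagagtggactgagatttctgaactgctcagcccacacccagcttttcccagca
Gbp2, chr3:142620413-142620712, plus strand: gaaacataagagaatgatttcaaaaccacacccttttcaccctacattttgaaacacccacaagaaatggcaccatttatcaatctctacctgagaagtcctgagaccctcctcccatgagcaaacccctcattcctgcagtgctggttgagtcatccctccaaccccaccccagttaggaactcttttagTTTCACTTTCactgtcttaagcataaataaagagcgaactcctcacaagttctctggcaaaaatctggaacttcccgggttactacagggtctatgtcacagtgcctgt
Irgm1, chr11:48871371-48871670, minus strand: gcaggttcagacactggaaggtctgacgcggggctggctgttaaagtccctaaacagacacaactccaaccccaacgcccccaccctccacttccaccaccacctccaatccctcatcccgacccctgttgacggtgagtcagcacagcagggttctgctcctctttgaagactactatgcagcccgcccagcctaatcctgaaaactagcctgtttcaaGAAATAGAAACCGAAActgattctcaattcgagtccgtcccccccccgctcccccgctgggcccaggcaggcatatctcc
Rsad2, chr12:26456403-26456702, minus strand: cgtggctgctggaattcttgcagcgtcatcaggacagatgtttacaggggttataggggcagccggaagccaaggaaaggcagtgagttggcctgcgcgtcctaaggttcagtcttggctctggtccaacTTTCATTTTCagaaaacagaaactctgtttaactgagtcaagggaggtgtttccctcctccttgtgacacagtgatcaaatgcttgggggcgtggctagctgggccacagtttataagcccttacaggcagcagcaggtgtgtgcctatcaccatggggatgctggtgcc

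Ifit1 and Ifit3, neighbours on chromosome 19, each carried 2 separate matches, the first beginning at position -104 in Ifit1 and at -156 in Ifit3, counted from the start. In Irgm1 a pair of overlapping matches began at -30, and in Gbp2 a lone match began at -59. The lone match of Rsad2 began at -120. Neither of the 2 windows of Ifit2, on the same chromosome, held these letters, nor did the windows of Ifi35, Oasl2 and Lgals3bp, whose differences were among the largest.

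Among the 32 measured genes with a window, the 14 with a match had a median difference of 1.46, and 13 of them were called higher in A_212, Rsad2 being the exception. The 18 without a match had a median of 0.37, with 11 called higher and 3 lower in A_212. Over the genes tested that are not among the 46, 77 of 366 with a match (21.0%) were called higher in A_212, against 1669 of 9489 without one (17.6%), and 72 (19.7%) against 2087 (22.0%) were called lower. With a C required after the second GAAA, 13 of the 36 listed genes matched (36.1%), against 0.944% of the table. All 11 of those measured were called higher in A_212, as were 13 of the 21 without this match (61.9%). Over the genes tested that are not among the 46, 22 of 78 with the stricter match (28.2%) were called higher, against 17.6% without it. The shares called lower were 21.8% and 21.9%. The other interferon-stimulated genes described below were not removed from the genes outside the 46. These counts are a description without a test.

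**Figure D3:**
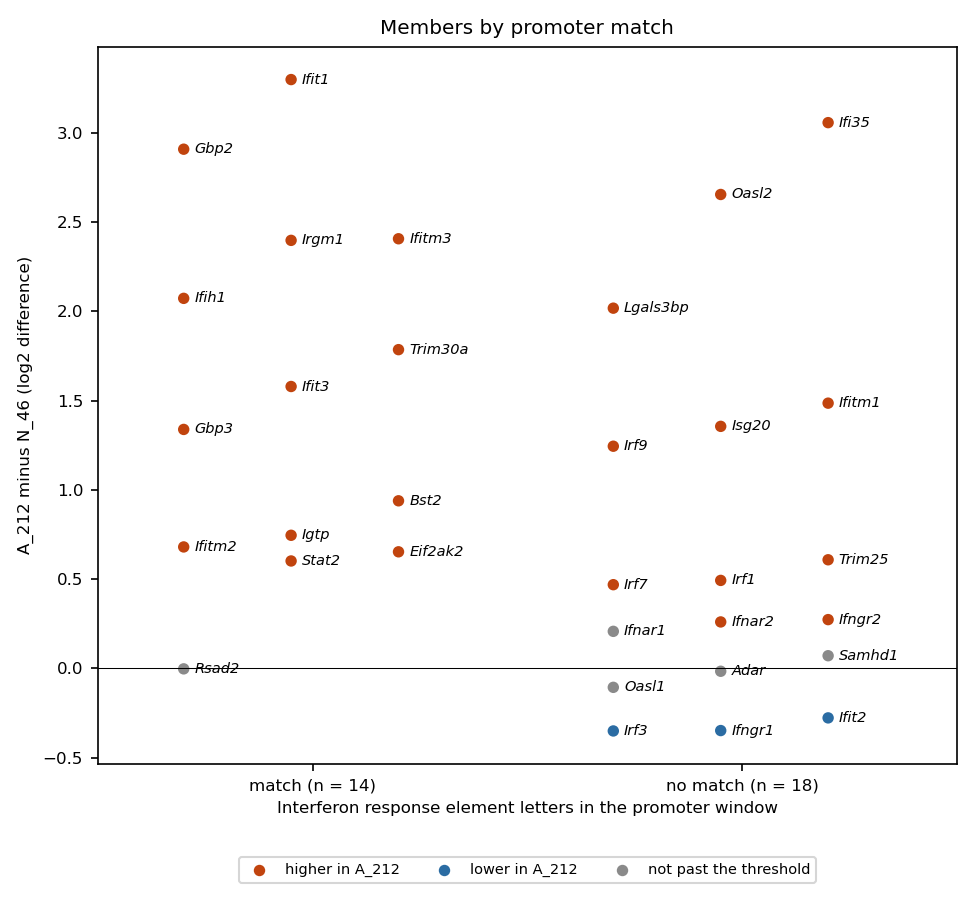
Difference between the lines (y axis, A_212 minus N_46, log2) for the 32 measured genes with a RefSeq promoter window, split by whether the window holds GAAA, any 2 bases and GAAA on either strand (x axis), each point being 1 gene. The 14 genes with a match have a median of 1.46, and the 3 genes called lower in A_212 are all among the 18 without a match.

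The probe sets taken one by one gave a like picture. Of the 62 probe sets, 36 were called higher in A_212, 5 lower and 21 did not pass, where 17.1% and 19% of all probe sets were called higher and lower. Several probe sets were available for 14 genes, and in 5 of these (Dhx58, Irf3, Rsad2, Samhd1 and Zbp1) they had differences of both signs. The widest gap between probe sets of a gene was 1.26 for Trim30a, followed by 0.74 for Rtp4. No sequence of the probes was used here, so which transcripts each probe set detects was not examined.

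The plates of A_212 were spread more widely over these genes than over genes at large. The median SD between plates was 0.19 in A_212 and 0.08 in N_46 over the 41 genes, against 0.10 and 0.08 over all genes and 0.17 and 0.14 over the 448 genes called higher in A_212 by at least 2-fold. A_212 replicate 1 was the lowest A_212 plate for 30 of the 41 genes (73.2%), where it was lowest for 33% of all genes. It was lowest for 23 of the 28 genes called higher in A_212 (82.1%), against 57.8% of those 448 genes. On average the 41 genes lay 0.19 below the mean of the line on replicate 1, 0.14 above it on replicate 2 and 0.05 above it on replicate 3. Those 448 genes averaged -0.13, 0.14 and -0.02 on the same 3 arrays. The 46 other interferon-stimulated genes described below averaged -0.07, 0.06 and 0.01, with replicate 1 lowest for 41.3% of them. Irf9, Bst2, Parp14 and Iigp1 had SDs between 0.39 and 0.49 in A_212, whereas Irgm1, Stat2, Irf1 and Eif2ak2, also called, had SDs between 0.03 and 0.06. The Actb control, read as its 3' probe set minus its 5' probe set to track RNA integrity, gave -0.03, 0.01 and 0.01 on the A_212 arrays, against 0.07, -0.04 and -0.02 on the N_46 arrays. The Gapdh control, read the same way, gave -0.01, 0.02 and -0.01 on the A_212 arrays, against 0.06, -0.02 and -0.03 on the N_46 arrays. The control probe sets are centred too, so these values show shifts between arrays and not the 3' to 5' ratio of any array. The largest shift in both controls was that of N_46 replicate 1. A_212 replicate 1 was the lowest A_212 array in both controls, level with replicate 3 in Gapdh. The part of RNA integrity in the spread was not tested. Without A_212 replicate 1 the counts were 28 higher and 2 lower with a median difference of 0.67, and without A_212 replicate 2 they were 24 and 3 with a median of 0.61.

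**Figure D4:**
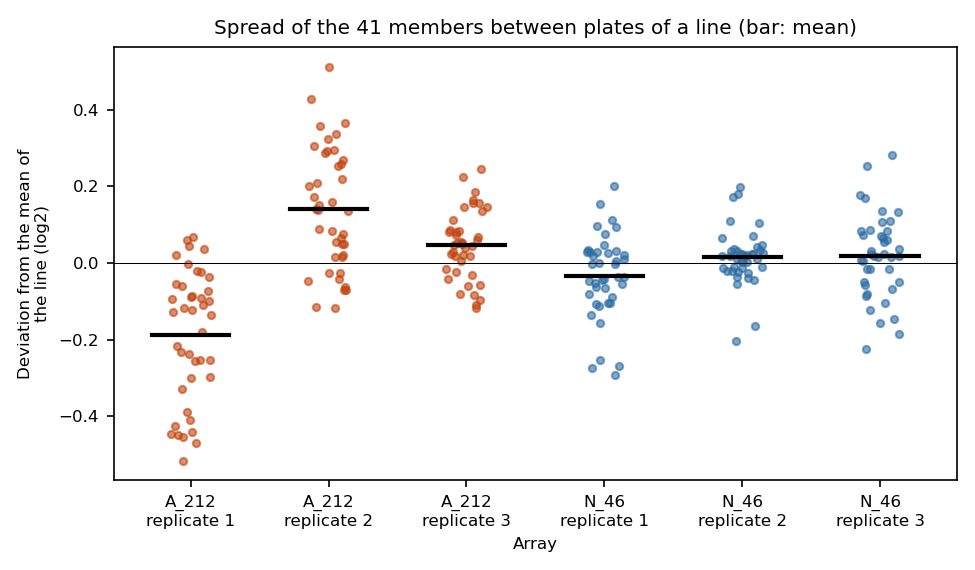
Deviation of each of the 41 genes from the mean of its line (y axis, log2) on each of the 6 arrays (x axis), with A_212 in orange, N_46 in blue and the mean over genes as a bar. A_212 replicate 1 averages -0.19 and A_212 replicate 2 averages 0.14, whereas the 3 N_46 arrays average between -0.03 and 0.02.

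The rest of the interferon system was described with lists of genes outside the 46, also chosen with earlier results of these data known. Of 46 other interferon-stimulated genes measured, 31 were called higher in A_212 (limma) and 15 did not pass, a share of 67.4% against the background of 18.3% over all genes. None was called lower, nor was any lower at an unadjusted p under 0.05, and the median difference was 0.36. Lgals9, which encodes a galectin, had 2.08, 2.15 and 1.91 on the A_212 arrays, against -2.25, -1.91 and -1.95 on the N_46 arrays, and differed by 4.08 ± 0.10 (adjusted p = 7.78e-10). The complement inhibitor gene Serping1 differed by 4.04 ± 0.19 and the immunity-related GTPase gene Ifi47 by 3.62 ± 0.10, both more than Ifit1.

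Genes that produce the interferon signal were counted apart. Of 10 interferon genes measured, 0 were called higher in A_212 in limma, and 0 were higher at an unadjusted p under 0.05, where 18.3% of all genes were called higher. Ifnb1, the interferon that most cell types can make, had -0.02, 0.05 and 0.02 on the A_212 arrays, against -0.02, -0.05 and 0.12 on the N_46 arrays, a difference of 0.00 ± 0.07 (95% interval -0.16 to 0.17). Ifng differed by 0.18 ± 0.11 (-0.06 to 0.43). Ifna5 was called lower in A_212 at -0.28 ± 0.09 (adjusted p = 0.0247), a call lost without A_212 replicate 1 or 2 or N_46 replicate 2 or 3. Interferon genes are a closely related family, and centred values cannot show whether any was expressed.

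Of 19 genes of JAK-STAT and IRF signalling, 7 were called higher in A_212, 2 lower and 10 did not pass, with a median difference of -0.005. The shares were 36.8% higher and 10.5% lower, against 18.3% and 20.9% over all genes. Nmi, the partner of Ifi35, differed by 1.63 ± 0.09, the STAT inhibitor gene Pias1 by 1.04 ± 0.08 and Stat6, the factor of interleukin-4 signalling, by 0.75 ± 0.09. Ptpn11 (-0.26 ± 0.07) and Stat4 (-0.25 ± 0.07) were called lower in A_212. Of 17 genes in a list of upstream pathogen sensing, most of them for nucleic acids, 6 were called higher in A_212, 4 lower and 7 did not pass, with a median of -0.06. Its 35.3% called higher compares with 18.3% of all genes, and its 23.5% called lower lies near the 20.9% of all genes. Ikbke, a kinase that phosphorylates IRF3 and IRF7, differed by 1.15 ± 0.13, the adaptor gene Tank by 0.97 ± 0.09 and Mavs, the mitochondrial adaptor of MDA5 and RIG-I, by 0.85 ± 0.07. Tlr2 (-0.55 ± 0.09), whose product is known as a sensor of bacterial lipoproteins, the RNA polymerase III subunit gene Polr3a (-0.49 ± 0.08) and the ribonuclease H2 subunit gene Rnaseh2c (-0.46 ± 0.09) were called lower in A_212. Tbk1, which encodes another kinase of IRF3 and IRF7, was also called lower in A_212 (-0.38 ± 0.09), opposite to Ikbke. Whether these lists differ from the interferon-stimulated genes was not tested.

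**Figure D5:**
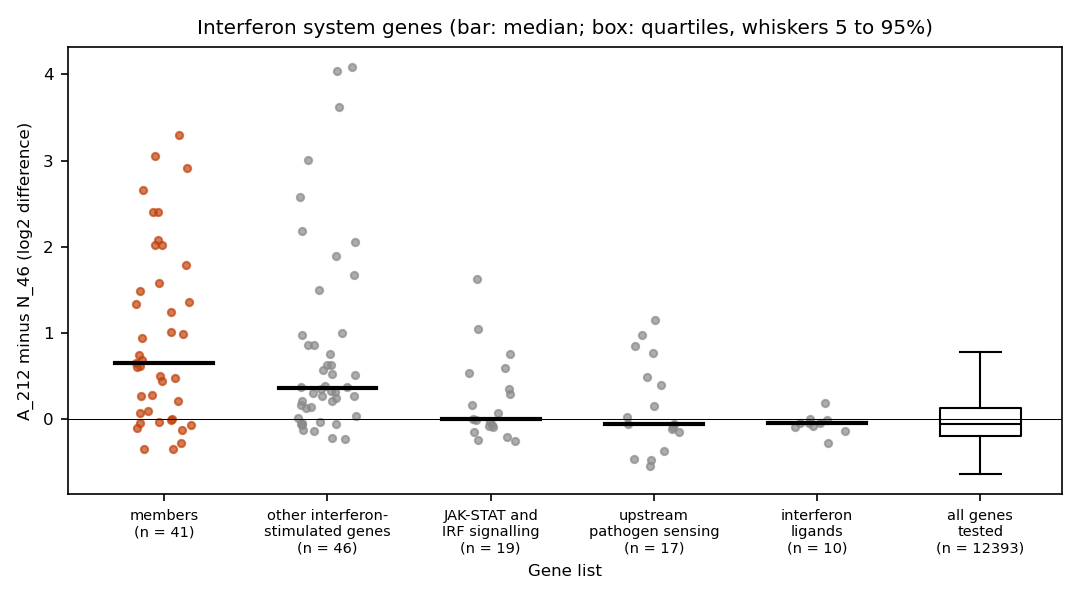
Difference between the lines (y axis, A_212 minus N_46, log2) for the 41 interferon-stimulated genes, 4 further lists of interferon system genes and all 12393 genes tested (x axis), with points for genes, bars for medians and a box for all genes. The medians are 0.65 for the 41 genes, 0.36 for the other interferon-stimulated genes and between -0.06 and 0.00 for the remaining lists and all genes.

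Markers of other cell types were read on the same arrays, as differences, since their summed levels are lost to centring. Their counts are set beside the 18.3% of all genes called higher in A_212 and the 20.9% called lower. Of 18 microglia and macrophage markers, 2 were called higher in A_212 (11.1%), 2 lower (11.1%) and 14 did not pass, both shares below those of all genes. Tmem119 (3.26 ± 0.11) and Cd14 (0.57 ± 0.07) were higher in A_212, and Cd68 (-0.28 ± 0.08) and Trem2 (-0.24 ± 0.07) were lower. Of 11 markers of plasmacytoid dendritic cells and lymphocytes, Tcf4, which many other cells express, was called higher in A_212 (0.91 ± 0.10) and 10 did not pass, so that 9.09% were called higher. Of 12 fibroblast markers, 7 were called higher in A_212 (58.3%), led by periostin (Postn, 5.14 ± 0.24) and Col3a1 (3.59 ± 0.11), and Col1a1 was called lower (-0.55 ± 0.08), which is 8.33% of the list. A_212 replicate 1 lay 0.14 below the mean of its line over the fibroblast markers, and 0.13 below it over the 448 genes called higher by at least 2-fold. N_46 replicate 1 lay 0.16 above the mean of its line over the fibroblast markers. Of 14 neuronal markers, 3 were called higher in A_212 (21.4%), 2 lower (14.3%) and 9 did not pass, which is near the shares of all genes. These were led by Stmn2 (3.09 ± 0.12) and Eno2 (1.47 ± 0.12), higher in A_212, and by Map2 (-0.25 ± 0.07) and Gap43 (-0.24 ± 0.07), lower in A_212. Npy differed by -0.05 ± 0.08 (95% interval -0.24 to 0.14). The part of any of these in the interferon-stimulated genes was not tested.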

How the data were processed

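RNA of 3 plates of A_212 and 3 plates of N_46 was measured on mouse oligonucleotide arrays. The deposited values are log2 expression from RMA per the submitters' processing notes, which name no version, and the authors' table has a median of 0 over the 6 arrays for all 22690 probe sets (within 1e-05), by a centring step not given in the sources used here. Of the probe sets, 20380 were named for 1 gene, 691 for several, 1555 for none and 64 were controls, and those with 1 gene were averaged into 12393 genes. By gene identifier, 20351 of the named probe sets were found in a RefSeq table (GRCm38.p6), and 0 symbols changed. The lines, taken from the labels, were compared with limma (lmFit, eBayes, two-sided, Benjamini-Hochberg over all genes, adjusted p under 0.05). A dim-probe filter could not be set on centred values. The genes and the lists were chosen with earlier results of these data known. Genes named were the listed members, up to 3 called genes each way per pathway list, 2 per marker list, and Npy. Ifnb1, Ifng, Tbk1, Ube2l6 and Uba7 were named outside this rule, after their values were seen. An item that this rule also covers is not reported here. Alternatives were other scalings, other uses of probe sets, array weights, robust eBayes, a replicate block, treat, each array left out, and a stricter motif. On simulated data of 12393 genes with 200 changed, limma recovered 64.2% of differences of 0.5, 98.5% of 1 and 100% of 2, with 9 false calls among 184. In the measured data 4853 genes were called, far more than were changed in the simulation, so these rates may not carry over. R 4.3.3, limma 3.58.1, statmod 1.5.0, Python 3.11.15, pandas 2.3.3, numpy 2.4.6 and matplotlib 3.10.9 were used.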

Additional observations from a re-analysis of the deposited data

How the results depend on the processing

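Over 14 alternatives, the members called higher in A_212 numbered between 24 and 29 and those called lower 2 or 3, except with plain probe sets alone (30 members measured, 19 higher and 2 lower) and with treat against a 2-fold bound (12 higher and 0 lower). The median difference over the members stayed between 0.60 and 0.68. Single arrays left out gave 24 to 28 members higher, 2 or 3 lower and medians from 0.61 to 0.67. Of all genes, 4853 were called, 406 with treat, and 3903 to 5124 with an array left out. With treat, 1 signalling gene, 0 sensing genes, 10 other interferon-stimulated genes, 0 interferon genes, 1 microglia marker, 0 dendritic and lymphoid markers, 5 fibroblast markers and 2 neuronal markers were called, because it asks for more than a 2-fold difference. With plain probe sets alone 0 interferon genes were called. With an array left out, the interferon genes gave 0 or 1 calls, the microglia markers 2 to 5, the dendritic and lymphoid markers 1 or 2, and the neuronal markers 3 to 5. Irf3 reversed to 0.0241 with plain probe sets alone, because 1 of its 4 probe sets is plain. The stricter motif was found in 13 listed genes, against 16. Same-numbered plates of the lines had correlations of deviations of -0.03, -0.01 and 0.09, and differently numbered plates had correlations from -0.10 to 0.12. These values cannot show whether same-numbered plates shared a batch or handling. The replicate block called 4834 genes with the same 28 and 3 members. Centring removes the level of each probe set, so signal over background could not be used to judge which members were detectable.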
